A study of Mus musculus with 18 samples.

Results

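Aldh1l1 and 7 other enzyme genes of one-carbon folate metabolism were followed in cultured mouse neural stem cells (NSCs) and in the astrocytes made from them. Aldh1l1, the gene whose product is widely used as an astrocyte marker, was chosen by its measured levels in these same libraries, which were higher in a hippocampal line than in spinal cord lines and differed little on average between NSCs and astrocytes. The other 7 genes, Aldh1l2, Mthfd1, Mthfd2, Mthfd1l, Shmt1, Shmt2 and Tyms, were named as enzymes of the same pathway, to ask whether they shared either feature. All 8 were found among the 27997 genes of the deposited table, and all 8 passed the filter on low values. Levels and differences of Aldh1l1 are therefore a description with no test, and tests were counted over the other 7 genes.

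The table held 18 RNA-sequencing libraries in 6 groups of 3, from 3 lines that were each grown as NSCs and differentiated into astrocytes. The traced tdTomato line (genotype DNGR-1 +/- Tom+/-) and the traced EYFP line (DNGR-1 +/- EYFP+/-) were grown from reporter-positive cells sorted out of spinal cord neurospheres, in mice where Cre under the dendritic cell gene DNGR-1 (Clec9a) switches on a ROSA reporter. The third line came from the hippocampus of mice carrying GlastCre, a floxed Huwe allele and a ROSA EYFP reporter, and its genotype was labelled DNGR-1+/+. NSCs were adherent cultures on laminin in epidermal and basic fibroblast growth factor, harvested on day 4, and astrocytes were made with 20 ng/ml of the bone morphogenetic protein BMP4 and harvested on day 6. Time and medium thus differ together between the fates. Replicates were cultures of passages 10, 11 and 12 of 1 line each, so a p-value below measures the spread between cultures of a line. Region, genotype and line cannot be told apart. Values are log2 normalised expression, for which the table gives no read depth per library, and weakly expressed genes lie closer together than their reads would. A linear fold below is 2 to the power of a log2 difference on that scale.

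Folate carries single carbon units between enzymes that exist in parallel in the cytosol and in mitochondria. Serine hydroxymethyltransferases (cytosolic Shmt1, mitochondrial Shmt2) load a carbon from serine onto tetrahydrofolate, and the MTHFD enzymes interconvert the loaded forms. Mthfd1 does so in the cytosol, while Mthfd2 and Mthfd1l work in mitochondria and release formate to the cytosol. The carbons are spent on purines, on methionine and, by thymidylate synthase (Tyms), on thymidylate for DNA. Aldh1l1 in the cytosol and Aldh1l2 in mitochondria take formyl-tetrahydrofolate out of this supply, oxidising its carbon to carbon dioxide. In the adult brain Aldh1l1 is known as a gene of astrocytes.

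All 8 genes lie on mouse autosomes (GRCm38), and Aldh1l1 and Mthfd2 share chromosome 6. Aldh1l1 (ENSMUSG00000030088) spans chr6:90486427-90600203 on the plus strand. Mthfd2 (ENSMUSG00000005667) spans chr6:83305691-83325908 on the minus strand. Their promoter sequences are shown because these 2 of the 8 genes differed most between hippocampal and traced astrocytes. There Aldh1l1 was higher and Mthfd2 lower in the hippocampal line. Among NSCs Aldh1l2, at -0.42 and -0.90 against the tdTomato and EYFP lines, differed more than Mthfd2, at -0.32 and -0.86. For Aldh1l1 and Mthfd2 the RefSeq start site lies inside the span given above, which begins further upstream. The sequences begin 120 bases before the RefSeq start site (build GRCm38.p6) and end 4 bases short of it for Aldh1l1 and 2 bases short of it for Mthfd2, where an annotated exon begins. They lie at chr6:90550673-90550788 (plus strand) and chr6:83317607-83317724 (minus strand), each read 5′ to 3′, with every CCAAT box in capitals (CCAAT, or ATTGG where the box is on the opposite strand).
Aldh1l1: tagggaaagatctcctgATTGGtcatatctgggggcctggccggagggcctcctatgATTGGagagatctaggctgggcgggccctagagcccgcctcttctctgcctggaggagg
Mthfd2: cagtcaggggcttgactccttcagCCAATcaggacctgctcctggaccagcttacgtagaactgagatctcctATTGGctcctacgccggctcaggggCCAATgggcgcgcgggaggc
The RefSeq promoter table held 7 of the 8 genes, all but Aldh1l2. Within the 250 bases before the start site, and on either strand, CCAAT was present in 4 of these 7 (Aldh1l1, Mthfd2, Shmt1 and Mthfd1) and in 33.8% of 32851 promoters. The GC box GGGCGG was found in 5 of the 7, all but Mthfd2 and Shmt2, and in 32.7% of all promoters. CACGTG was present in Tyms alone of the 7 and in 6.02% of promoters. None of the 7 held TGATGNAA (3.45% of promoters), TTTGGCGC (0.417%) or TTTCCCGC (0.895%), which says only that these letters are not in these windows.

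Astrocyte markers separated the fates. Gfap, the astrocyte intermediate filament, rose by 6.53 (log2, average over the 3 lines, SE 0.10, adjusted p = 1.1e-19), and the water channel Aqp4 rose by 4.36 (SE 0.10, adjusted p = 1.1e-17). All 7 astrocyte marker genes rose, and their summed linear level was 34100 to 43100 in tdTomato, 50500 to 58700 in EYFP and 74500 to 75600 in hippocampal NSCs, and 155000 to 180000, 175000 to 211000 and 230000 to 258000 in the astrocytes of the same lines. The sum was thus highest in the hippocampal line in both fates, as Aldh1l1 was. Gene by gene, 5 of the 7 markers were higher and 0 lower in hippocampal than in tdTomato NSCs. Against EYFP NSCs 4 were higher and 1 lower. In astrocytes 4 were higher and 2 lower against the tdTomato line, and 3 and 2 against the EYFP line. Of 15450 genes tested, 2676, 1853, 4792 and 4244 were higher and 3063, 2127, 4197 and 3725 lower, in the same order. Of 5 NSC markers 3 fell and 2 rose on average, Vim by 1.21 (SE 0.05) and Sox2 by 1.06 (SE 0.05). Their summed linear level was 81800 to 83100 in tdTomato, 83700 to 88100 in EYFP and 85100 to 90500 in hippocampal NSCs. In the astrocytes of the same lines the sum of the 5 was 84600 to 91100, 92200 to 100000 and 193000 to 239000. Nes, the NSC intermediate filament, fell by 2.15 on average (SE 0.06, adjusted p = 2.1e-16), but stood at 13.64 in hippocampal astrocytes against 11.09 and 10.86 in tdTomato and EYFP astrocytes, and its hippocampal difference of -0.22 did not pass (adjusted p = 0.063). Huwe1 read between 13.06 and 13.32 in every group mean, and Clec9a was not among the genes of the table. Slc1a3, the gene of Glast, rose by 0.38 on average from NSC to astrocyte (SE 0.05). Of Huwe1 and Slc1a3, 1 was higher and 0 lower in the hippocampal line than in each traced line, in NSCs and in astrocytes. The microglia genes Aif1 and Itgam were near the table's lowest value in every group, while Tmem119 read 6.15 in tdTomato NSCs and 2.37 and 1.73 in the EYFP and hippocampal NSCs. Summed over the 4 microglia markers in the table, the linear level was 62.3 to 83.9 in tdTomato NSCs, 6.93 to 10.4 in EYFP NSCs and 6.53 to 7.48 in hippocampal NSCs, and in astrocytes 37.9 to 58.6, 13.9 to 22.2 and 13.3 to 15.9 in the same order of lines. The 5 oligodendrocyte markers summed to 1070 to 1300 in tdTomato, 773 to 1060 in EYFP and 258 to 307 in hippocampal astrocytes, against 89.2 to 123 over all NSC libraries, with Mog, Mag and Sox10 below the filter throughout. The 5 neuron markers summed to 154 to 285 in NSCs and 345 to 469 in astrocytes, and the 3 endothelial and mural markers in the table to 7.47 to 12.1 and 53 to 75.8. The 3 ependymal markers in the table summed to 697 to 1450 in NSCs, 2060 to 2620 in the traced astrocytes and 4520 to 5070 in hippocampal astrocytes. The part of these cell types in the results below was not tested.

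Aldh1l1 divided the libraries mainly by line, the hippocampal against the traced lines. In NSCs it read 6.71, 6.47 and 6.37 in the tdTomato line (replicates 1 to 3), 7.15, 7.19 and 7.17 in the EYFP line, and 10.53, 10.27 and 10.06 in the hippocampal line. In astrocytes it read 7.07, 6.73 and 7.09 in the tdTomato line, 7.06, 6.87 and 7.05 in the EYFP line, and 10.68, 10.14 and 10.01 in the hippocampal line. Every hippocampal library lay above every traced library in both fates. The group means in rising order were tdTomato NSCs (6.52 ± 0.17, SD, n = 3 here and below), tdTomato astrocytes (6.96 ± 0.20), EYFP astrocytes (6.995 ± 0.106), EYFP NSCs (7.17 ± 0.02), hippocampal astrocytes (10.28 ± 0.36) and hippocampal NSCs (10.28 ± 0.23). The ranges of the tdTomato and EYFP astrocytes overlapped, as did those of the hippocampal groups, and no other neighbours in this order did.

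The hippocampal NSCs lay 3.77 above the tdTomato NSCs (13.6-fold) and 3.12 above the EYFP NSCs (8.68-fold), with an SE of 0.15 for each difference. The hippocampal astrocytes lay 3.31 above the tdTomato astrocytes (9.95-fold) and 3.28 above the EYFP astrocytes (9.74-fold). Of 15450 genes tested, 36, 58, 132 and 137 had a larger difference in the same direction in these comparisons, taken in the order given. The change from NSC to astrocyte was small beside this. Aldh1l1 was 0.45 higher in tdTomato astrocytes than in tdTomato NSCs and 0.17 lower in EYFP astrocytes than in EYFP NSCs, in both cases with ranges that did not overlap, and the hippocampal fates overlapped. Without EYFP astrocyte replicate 2 the EYFP difference was -0.11. Averaged over the lines the difference was 0.09 (SE 0.09). In a bulk library, fewer cells that express a gene and less RNA per cell cannot be told apart.

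**Figure D1:**
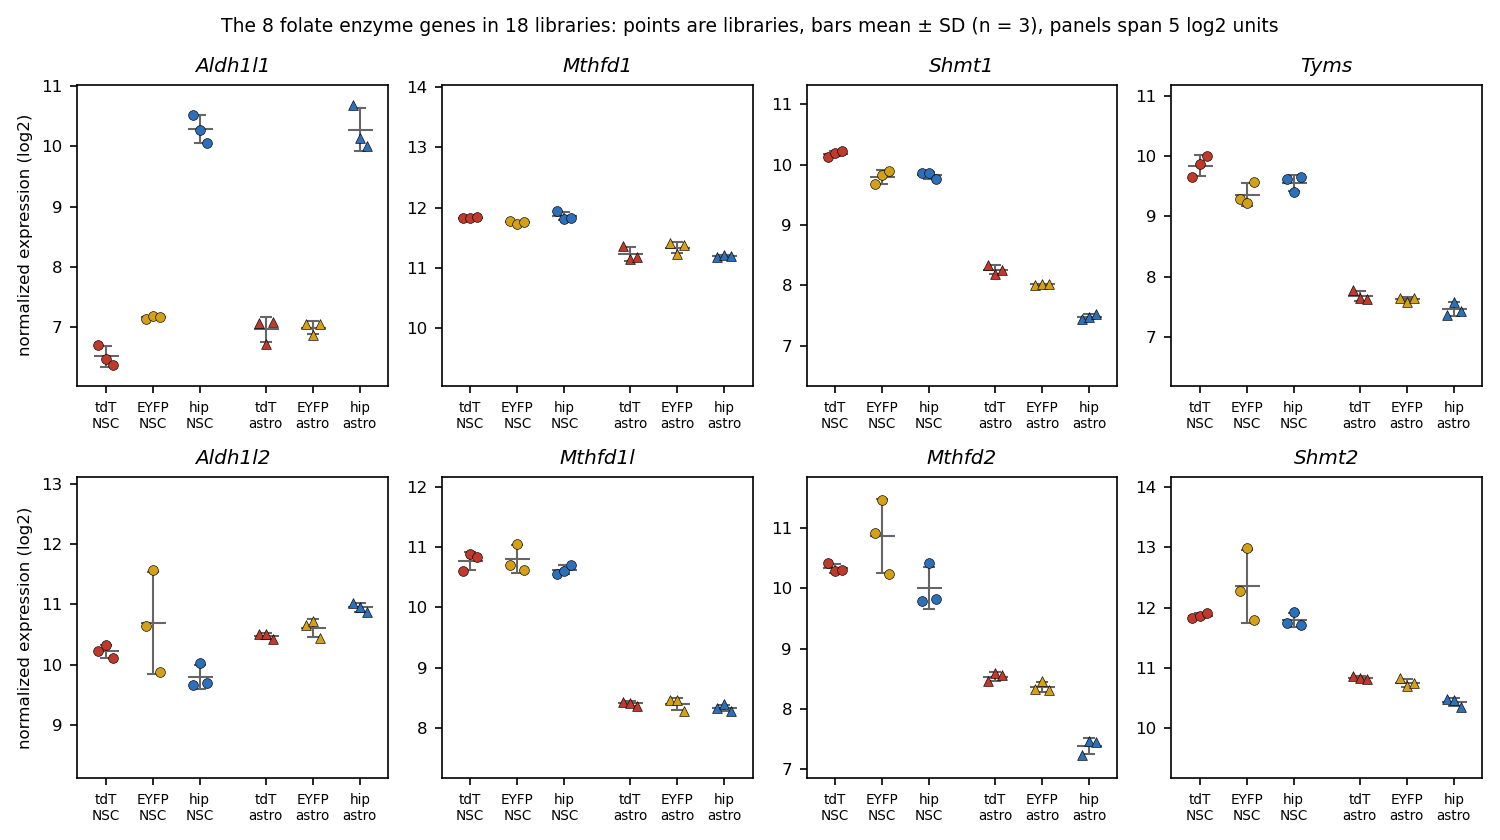
Normalised expression (log2, y axis) of the 8 genes in 3 NSC groups (circles) and 3 astrocyte groups (triangles) on the x axis, with tdTomato in red, EYFP in yellow and hippocampal (hip) in blue; each point is 1 library, bars are mean ± SD over 3 libraries, and every panel spans 5 log2 units. The 6 hippocampal libraries of Aldh1l1 lie at 10.01 and above while its 12 traced libraries lie at 7.19 and below, whereas Mthfd1, Shmt1, Tyms, Mthfd1l, Mthfd2 and Shmt2 step down from circles to triangles in every line.

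The other enzymes went with fate. From NSC to astrocyte, 6 of the 7 tested genes fell in every line (Mthfd1, Shmt1, Tyms, Mthfd1l, Mthfd2 and Shmt2), and Aldh1l2 was the exception. Each of the 6 fell with adjusted p-values (limma, Benjamini-Hochberg over 15450 genes) between 2.7e-16 and 3.7e-05 in the 3 lines. Changes of this kind were common in these cultures. Genes that fell made up 38.5% of all genes tested in the tdTomato line, 37% in the EYFP line and 37.3% in the hippocampal line, and genes that changed in either direction 78.4%, 75.2% and 76.3%. The median change of the 7 was -1.80, -1.73 and -2.09 in the 3 lines, against 0.01, 0.01 and 0.02 over all genes tested.

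Shmt1, which loads serine carbon onto cytosolic folate, had narrow groups. Its NSC libraries read 10.14, 10.19 and 10.22 in the tdTomato line, 9.68, 9.83 and 9.90 in the EYFP line and 9.86, 9.86 and 9.76 in the hippocampal line. Its astrocyte libraries read 8.34, 8.19 and 8.25, then 8.01, 8.01 and 8.02, then 7.44, 7.47 and 7.52 in the same order of lines. The 3 lines followed each other without overlap in the astrocytes. Shmt1 fell by 1.92 in the tdTomato line, 1.78 in the EYFP line and 2.35 in the hippocampal line (SE 0.06 each), or 4.05-fold on average (adjusted p = 2.1e-19). Shmt1 (ENSMUSG00000020534) lies at chr11:60788104-60811718 on the minus strand.

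Mthfd1, which carries several cytosolic folate activities on 1 protein, changed least of the 6. It ranged from 11.72 to 11.94 over the 9 NSC libraries and from 11.15 to 11.41 over the 9 astrocyte libraries. The fall was 0.60 in the tdTomato line, 0.42 in the EYFP line and 0.66 in the hippocampal line (SE 0.05 each), or 1.48-fold on average (adjusted p = 5.9e-12). Mthfd1 (ENSMUSG00000021048) lies at chr12:76255298-76319803 on the plus strand. Tyms, the enzyme that makes thymidylate, ranged from 9.21 to 10.00 in NSCs and from 7.37 to 7.77 in astrocytes. It fell by 2.16 in the tdTomato line, 1.73 in the EYFP line and 2.09 in the hippocampal line (SE 0.10 each), or 3.98-fold on average (adjusted p = 4.1e-16). Tyms (ENSMUSG00000025747) lies at chr5:30058202-30073617 on the minus strand.

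The mitochondrial enzymes on the route to formate, Shmt2, Mthfd2 and Mthfd1l, fell as well. Mthfd1l, the last step of that route, ranged from 10.55 to 11.05 in NSCs and from 8.27 to 8.46 in astrocytes. It fell by 2.37 in the tdTomato line, fell by 2.40 in the EYFP line and fell by 2.28 in the hippocampal line (SE 0.09 each), or 5.09-fold on average (adjusted p = 1.4e-17). Mthfd1l (ENSMUSG00000040675) lies at chr10:3973118-4167081 on the plus strand.

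Mthfd2, a mitochondrial dehydrogenase and cyclohydrolase, read 10.42, 10.29 and 10.30 in tdTomato NSCs, 10.91, 11.46 and 10.24 in EYFP NSCs, and 9.79, 10.41 and 9.83 in hippocampal NSCs. In astrocytes it read 8.46, 8.60 and 8.56 in the tdTomato line, 8.33, 8.47 and 8.31 in the EYFP line, and 7.24, 7.47 and 7.45 in the hippocampal line. The NSC groups overlapped, while the hippocampal astrocytes lay below all 6 traced astrocyte libraries. Mthfd2 fell by 1.80 in the tdTomato line, fell by 2.51 in the EYFP line and fell by 2.63 in the hippocampal line (SE 0.21 each), or 4.96-fold on average (adjusted p = 1.7e-12).

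Shmt2, which supplies mitochondrial folate from serine, read 11.82, 11.86 and 11.91 in tdTomato NSCs, 12.28, 12.98 and 11.79 in EYFP NSCs, and 11.74, 11.93 and 11.72 in hippocampal NSCs. Its 9 astrocyte libraries lay between 10.35 and 10.87. It fell by 1.03 in the tdTomato line (adjusted p = 3.7e-05), 1.59 in the EYFP line and 1.36 in the hippocampal line (SE 0.18 each), or 2.51-fold on average (adjusted p = 6.0e-10). Shmt2 (ENSMUSG00000025403) lies at chr10:127517123-127522444 on the minus strand.

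Aldh1l2, the mitochondrial counterpart of Aldh1l1, was the only one of the 7 that rose in any line under the fit over all libraries. It read 10.23, 10.32 and 10.11 in tdTomato NSCs, 10.64, 11.57 and 9.88 in EYFP NSCs, and 9.66, 10.03 and 9.70 in hippocampal NSCs. In astrocytes it read 10.51, 10.51 and 10.42, then 10.65, 10.73 and 10.43, then 11.02, 10.95 and 10.88 in the same order of lines. The EYFP NSC libraries spread over more than the whole range of the astrocytes. Aldh1l2 rose by 1.15 in the hippocampal line (2.22-fold, SE 0.25, adjusted p = 4.4e-04), where 39% of all genes tested rose. The difference was 0.26 in the tdTomato line (95% interval -0.27 to 0.79, adjusted p = 0.35) and -0.10 in the EYFP line (95% interval -0.62 to 0.43, adjusted p = 0.74). Averaged over the lines the rise was 0.44 (SE 0.14, adjusted p = 0.0091), where 44.3% of all genes tested rose. The tdTomato difference of 0.26 passed in a fit of the compared libraries alone (adjusted p = 0.0034) and with both EYFP groups left out, an alternative chosen after seeing the data (adjusted p = 0.012). Aldh1l2 (ENSMUSG00000020256) lies at chr10:83487450-83534140 on the minus strand, and 12.8% of the 75-base stretches of its transcripts also occur in D10Wsu102e, so some of its reads could have been assigned to either gene.

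**Figure D2:**
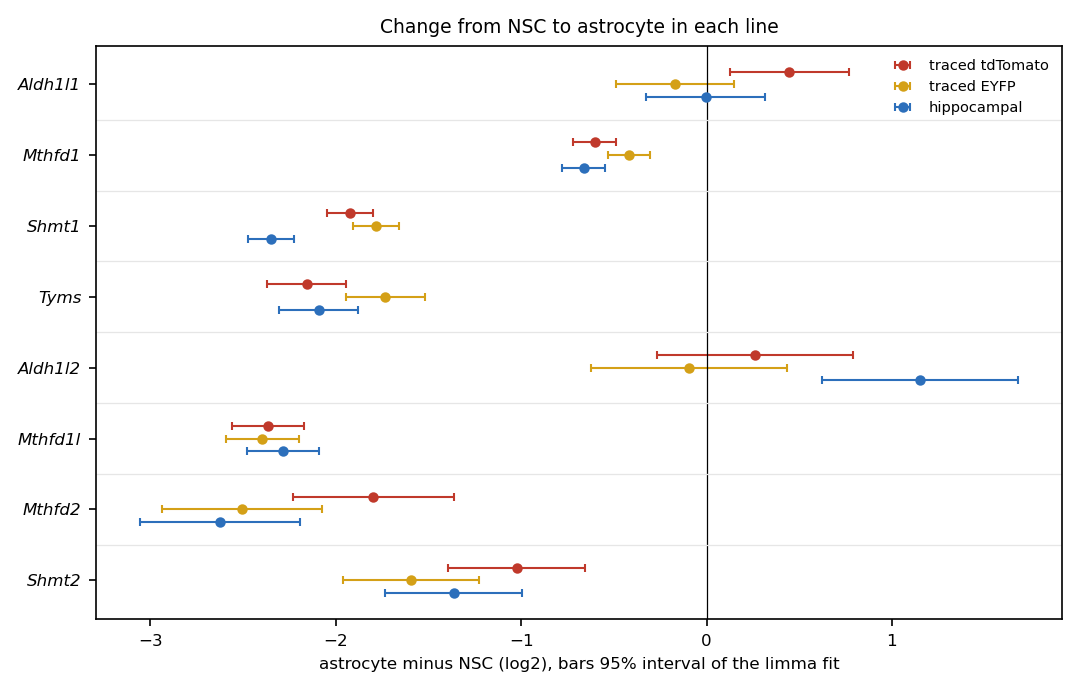
Astrocyte minus NSC difference (log2, x axis) of each of the 8 genes (y axis) in the tdTomato, EYFP and hippocampal lines; points are fitted differences over 3 libraries per group and bars their 95% intervals. Mthfd1, Shmt1, Tyms, Mthfd1l, Mthfd2 and Shmt2 lie below 0 in every line, from -0.42 to -2.63, whereas Aldh1l1 lies between -0.17 and 0.45 and Aldh1l2 between -0.10 and 1.15.

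The neighbouring steps of one-carbon metabolism were read from 7 lists of other genes, which named 45 genes, of which 44 were in the table and 40 passed the filter. In the average over the lines, 25 of the 40 fell, 11 rose and 4 did not pass the test (background 42% fell and 44.3% rose), with a median change of -0.44 against 0.02 over all genes tested. In uptake and retention, 3 of 6 genes fell and 2 rose. Fpgs, which adds glutamates that hold folate in the cell, fell by 0.35 (SE 0.05, adjusted p = 9.1e-07). Folr1, the folate receptor alpha, rose by 3.43 (SE 0.14, adjusted p = 3.7e-14), from group means of 1.66 to 1.92 in NSCs, below the level of the filter on low values, to 4.45, 5.10 and 6.01 in tdTomato, EYFP and hippocampal astrocytes. Ggh, which removes the glutamates, rose by 0.08 (SE 0.03, adjusted p = 0.025), but stood at -0.10 in the hippocampal line (adjusted p = 0.12).

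Among other cytosolic folate enzymes, 2 of 4 fell and 2 rose. Gart and Atic, which use formyl-folate in purine synthesis, fell by 0.61 (SE 0.03, adjusted p = 5.0e-12) and 0.60 (SE 0.02, adjusted p = 2.3e-14), and Mthfs, which returns a storage form of folate to use, rose by 0.53 (SE 0.08, adjusted p = 3.8e-06), with a hippocampal difference of 0.15 that did not pass (adjusted p = 0.33). The list of other mitochondrial folate and glycine cleavage genes had 4 of 7 that fell and 2 that rose. Gldc, the decarboxylase of the glycine cleavage system, fell by 1.27 (SE 0.04, adjusted p = 3.6e-16) and Mthfd2l, the Mthfd2 paralogue, fell by 0.65 (SE 0.04, adjusted p = 6.1e-11). Amt, the aminomethyltransferase of glycine cleavage, rose by 0.39 (SE 0.03, adjusted p = 2.4e-09) and Mtfmt, which formylates mitochondrial initiator tRNA, by 0.30 (SE 0.04, adjusted p = 5.1e-06). The hippocampal difference of Amt was -0.07 (adjusted p = 0.30).

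Serine synthesis feeds the SHMT enzymes, and 2 of its 3 genes fell. Psat1 fell by 1.81 on average (SE 0.05, adjusted p = 6.2e-16), with group means of 13.42, 13.65 and 13.09 in tdTomato, EYFP and hippocampal NSCs and 11.07, 11.04 and 12.63 in the astrocytes. Psph fell by 0.46 on average (SE 0.08, adjusted p = 3.4e-05), with -0.19 in the hippocampal line (adjusted p = 0.23). In the methionine cycle and transsulfuration, 4 of 7 fell and 2 rose. Cth, which makes cysteine, fell by 2.08 (SE 0.16, adjusted p = 9.9e-10), Ahcy, which clears S-adenosylhomocysteine, by 0.93 (SE 0.06, adjusted p = 4.8e-11), and Mtrr, which reactivates methionine synthase, by 0.78 (SE 0.04, adjusted p = 8.0e-12). Mtr, methionine synthase itself, rose by 0.37 (SE 0.03, adjusted p = 4.7e-10) and Mat2b by 0.17 (SE 0.03, adjusted p = 1.6e-05). Neither passed in the tdTomato line, where the differences were 0.02 for Mtr (adjusted p = 0.67) and -0.03 for Mat2b (adjusted p = 0.55), whereas the EYFP cells had a rise in Mtr of 0.19 and the hippocampal cells one of 0.90.

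In purine synthesis 4 of 6 genes fell, led by Ppat, the committed step, which fell by 1.22 (SE 0.04, adjusted p = 7.5e-16). Impdh2 and Adsl fell by 0.66 (SE 0.03, adjusted p = 1.4e-12) and 0.61 (SE 0.03, adjusted p = 5.8e-12), while Pfas rose by 0.24 (SE 0.04, adjusted p = 6.9e-06) and Paics by 0.10 (SE 0.03, adjusted p = 0.0014). In the hippocampal line Pfas and Paics differed by 0.05 and 0.01 and did not pass (adjusted p = 0.49 and 0.89), nor did Paics in the tdTomato line (0.09, adjusted p = 0.073). The list with the lowest median of the 7 was thymidine nucleotide supply, where 6 of 7 genes fell and the median change was -1.47. Rrm2, the ribonucleotide reductase subunit of dividing cells, fell by 4.18 (SE 0.06, adjusted p = 3.7e-20), Tk1, the cytosolic thymidine kinase, fell by 3.87 (SE 0.09, adjusted p = 2.2e-17), and Dut, which makes the substrate of Tyms, by 2.09 (SE 0.06, adjusted p = 8.0e-16). Tk2, the mitochondrial kinase, rose by 0.50 (SE 0.05, adjusted p = 2.3e-08).

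DNA replication genes moved with these. All 10 on their list fell in every line, with a median average change of -1.97. By line their median was -2.45 in tdTomato, -1.88 in EYFP and -1.77 in hippocampal cells, where the 7 folate enzymes had -1.80, -1.73 and -2.09. Of the replicative helicase, Mcm5 fell by 3.44 (SE 0.05, adjusted p = 8.2e-21), Cdc45 fell by 2.81 (SE 0.06, adjusted p = 5.7e-18) and Mcm3 fell by 2.76 (SE 0.05, adjusted p = 1.4e-19). The 10 genes summed on the linear scale to 34800 to 38800 in tdTomato, 25100 to 32100 in EYFP and 26200 to 29100 in hippocampal NSCs, and to 7380 to 8300 over the 9 astrocyte libraries. The part of cell division in the fall of the folate enzymes was not tested.

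**Figure D3:**
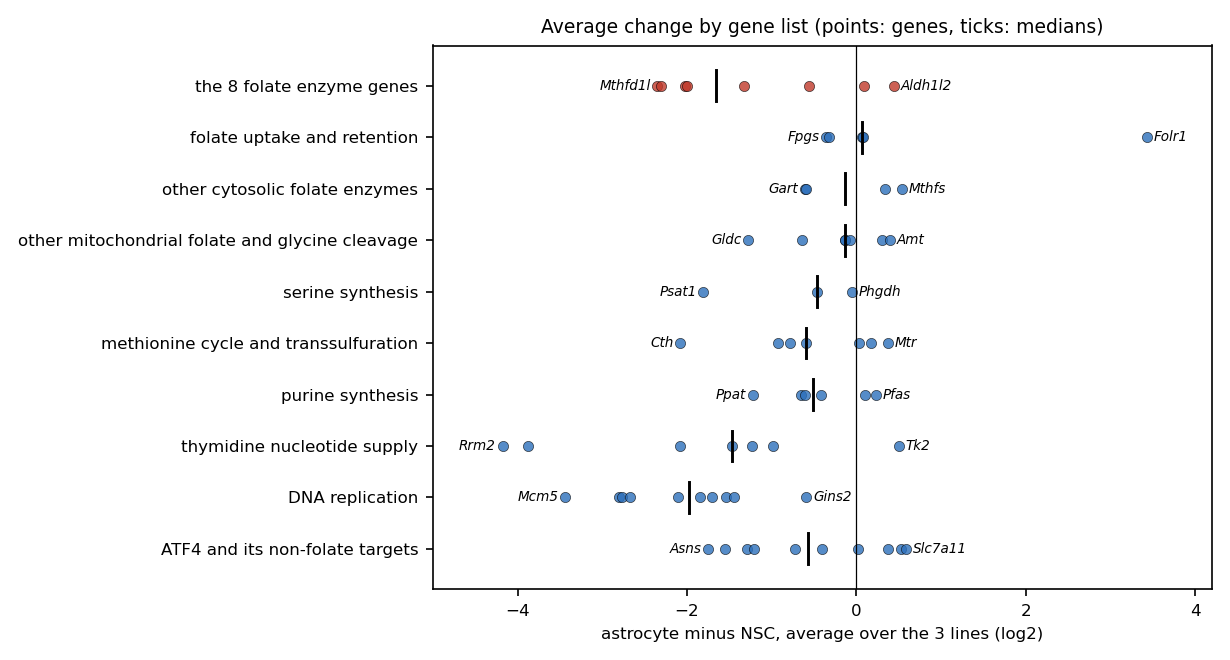
Average astrocyte minus NSC difference over the 3 lines (log2, x axis) for the tested genes of each list (y axis); points are genes, black ticks the median of the points drawn, and the genes at either end of a list are named (1 gene of folate uptake and retention is not drawn). The median ticks of thymidine nucleotide supply at -1.47 and DNA replication at -1.97 lie furthest left among the blue lists, while Folr1 at 3.43 stands alone on the right.

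The line difference of Aldh1l1 was looked for in the other 7 genes. None of the 7 was higher, and none lower, in the hippocampal line than in both traced lines in both fates by limma, at an adjusted or at an unadjusted p under 0.05. Of all genes tested, 3.68% were higher and 4.12% lower in all 4 of these comparisons at an adjusted p, and 4.78% and 5.2% at an unadjusted p. These comparisons share the hippocampal libraries of each fate. Among the 40 tested genes of the 7 lists, Amt was higher in all 4, with group means of 9.39, 9.09 and 10.29 in tdTomato, EYFP and hippocampal NSCs and 9.83, 9.90 and 10.23 in the astrocytes. Ahcy and Impdh2 were lower in all 4. Ahcy was lower in the hippocampal NSCs by 1.28 and 0.81 than in the tdTomato and EYFP NSCs, and Impdh2 by 0.39 and 0.22.

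Where the 7 enzymes differed between hippocampal and traced lines, the hippocampal line was the lower one. Among NSCs, hippocampal against tdTomato gave 2 of 7 called (37.1% of all genes tested in either direction) and hippocampal against EYFP gave 3 of 7 (25.8%). In astrocytes the counts were 2 of 7 against tdTomato (58.2%) and 3 of 7 against EYFP (51.6%). All 10 of these calls were lower in the hippocampal line. The shares of genes called lower were 19.8%, 13.8%, 27.2% and 24.1% of all genes tested.

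Shmt1 and Mthfd2 made up most of the astrocyte calls. Shmt1 was lower in hippocampal astrocytes by 0.79 than in tdTomato astrocytes (adjusted p = 3.2e-09) and by 0.54 than in EYFP astrocytes (SE 0.06 each, adjusted p = 5.0e-07). Mthfd2 was lower by 1.15 (adjusted p = 1.1e-04) and by 0.98 (SE 0.21 each, adjusted p = 6.2e-04). Both held in every alternative fit. Mthfd1 was 0.14 lower in hippocampal than in EYFP astrocytes (SE 0.05, adjusted p = 0.043), which no longer passed the test in 11 of the alternative fits, with adjusted p up to 0.17. Shmt2 lay 0.41 and 0.33 lower in hippocampal astrocytes without overlap and did not pass (SE 0.18 each, adjusted p = 0.055 and 0.13), but passed in both comparisons without EYFP NSC replicate 2 (adjusted p = 8.2e-04 and 0.0052). Aldh1l2, in the other direction, lay 0.47 and 0.35 higher in hippocampal astrocytes without overlap (SE 0.25 each, adjusted p = 0.12 and 0.26), and likewise passed without that library (adjusted p = 0.0085 and 0.048). Mthfd1l differed by at most 0.17 between any groups of the same fate and passed in no comparison of lines, with 95% intervals of those 6 differences that ran from -0.37 to 0.22.

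Among NSCs, Shmt1 and Tyms were highest in the tdTomato line. Shmt1 lay 0.36 lower in the hippocampal line (adjusted p = 1.1e-04) and 0.38 lower in the EYFP line (adjusted p = 1.1e-04) than in tdTomato NSCs, and the hippocampal and EYFP NSCs differed by 0.03 (95% interval -0.10 to 0.15). Tyms was lower by 0.29 in the hippocampal NSCs (SE 0.10, adjusted p = 0.033) and by 0.48 in the EYFP NSCs (SE 0.10, adjusted p = 0.0015). The first of these was lost without tdTomato NSC replicate 3 (-0.20, adjusted p = 0.17), without tdTomato NSC replicate 2 (-0.27, adjusted p = 0.087) or without hippocampal NSC replicate 2 (-0.21, adjusted p = 0.16). Of the 10 DNA replication genes, 8 were lower in hippocampal than in tdTomato NSCs (19.8% of all genes tested) and 9 in EYFP than in tdTomato NSCs (16.4%), and the median difference between hippocampal and EYFP NSCs was 0.02. Their part in the Tyms and Shmt1 differences was not tested.

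The traced lines against each other gave 3 of 7 called in NSCs (31.4% of all genes tested), which were Shmt1 and Tyms, lower in the EYFP line, and Shmt2, higher by 0.49 (SE 0.18, adjusted p = 0.042) with overlapping ranges. The Shmt2 call was lost in most fits that left out 1 library. It was also lost without a filter, without a variance trend and with only the compared libraries (limma, adjusted p = 0.081, 0.075 and 0.18). In astrocytes 1 of 7 was called (14.4%), Shmt1, which was 0.25 lower in the EYFP line (SE 0.06, adjusted p = 0.0079) and did not pass in a fit of the compared libraries alone (adjusted p = 0.066).

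**Figure D4:**
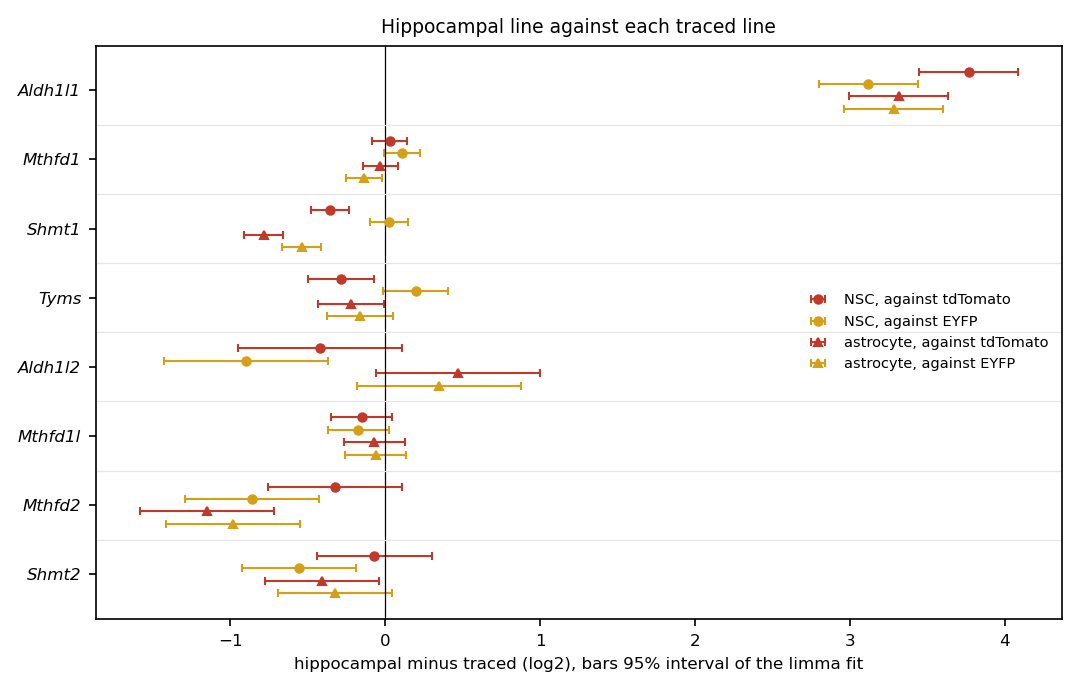
Hippocampal minus traced difference (log2, x axis) of each of the 8 genes (y axis), against the tdTomato line (red) and the EYFP line (yellow), in NSCs (circles) and astrocytes (triangles); bars are 95% intervals of the fit over 3 libraries per group. The 4 values of Aldh1l1 lie between 3.12 and 3.77, and the values of the other 7 genes lie between -1.15 and 0.47.

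The size of the astrocyte change was also compared between lines. The change differed between the hippocampal and tdTomato lines for 3 of 7 genes (45.3% of all genes tested) and between the hippocampal and EYFP lines for 3 of 7 (38%). Shmt1 fell further in the hippocampal line, by 0.43 against the tdTomato line (SE 0.08, adjusted p = 4.4e-04) and by 0.57 against the EYFP line (SE 0.08, adjusted p = 3.7e-05). Mthfd2 fell further in the hippocampal than in the tdTomato line by 0.83 (SE 0.29, adjusted p = 0.027). The change of Mthfd1 was 0.25 lower in the hippocampal than in the EYFP line (SE 0.08, adjusted p = 0.018), and that of Aldh1l2 was 0.89 higher than in the tdTomato line (SE 0.35, adjusted p = 0.049) and 1.25 higher than in the EYFP line (SE 0.35, adjusted p = 0.0099). The last was 0.81 without EYFP NSC replicate 2 (adjusted p = 0.0063). The Mthfd1 call was lost without hippocampal NSC replicate 1 (-0.21, adjusted p = 0.053), and that of Mthfd2 on leaving out any of several single libraries (adjusted p up to 0.084). The Aldh1l2 call against the tdTomato line was lost in most fits that left out 1 library (adjusted p up to 0.097). It was also lost without a filter and without a variance trend (limma, adjusted p = 0.088 and 0.081). Between the traced lines 0 of 7 genes differed in their change by limma (13.3% of all genes tested), where 4 of the 7 had an unadjusted p under 0.05 (28.4% of all genes tested) and the lowest adjusted p was 0.057, for Tyms. Over all genes, 3996 changes were higher and 3003 lower in the hippocampal than in the tdTomato line, and 3066 and 3991 after median centring of the libraries. Against the EYFP line the numbers were 3243 higher and 2623 lower, and 2701 and 3295 after centring. All 6 called differences of the 7 enzymes kept their direction under median centring and quantile normalization, but that of Aldh1l2 against the tdTomato line no longer passed under either (adjusted p = 0.078 and 0.059).

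For 6 of the 8 genes, all but Aldh1l1 and Mthfd1, the EYFP NSC group held the widest range of the 6 groups. Replicate 2 was highest and replicate 3 lowest for Aldh1l2 (a range of 1.69), Mthfd2 (1.22), Shmt2 (1.20) and Mthfd1l (0.44), the 4 mitochondrial enzymes. The 4 cytosolic enzyme genes ranged over 0.04 (Aldh1l1), 0.05 (Mthfd1), 0.22 (Shmt1) and 0.36 (Tyms). Over all genes tested in this group, the median range was 0.163 and the 95th percentile 0.770, and 20.2% of genes had replicate 2 highest and replicate 3 lowest. A range of at least 1 was found for 2.31% of all genes and for 3 of the 8. The order was singled out after the values were seen, and no test was made of it.

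The transcription factor ATF4 is induced when amino acids run short, and mitochondrial folate and serine synthesis genes are among its known targets. All 10 genes of a list of ATF4 and its non-folate targets had the same order of the EYFP NSC libraries, as did the 3 serine synthesis genes. Trib3 read 6.80, 8.17 and 5.57 in replicates 1 to 3, Chac1 8.42, 9.32 and 6.97, and Asns, asparagine synthetase, 11.62, 12.41 and 10.63. Of these 10 genes 8 had a range of at least 1. Their summed linear level was 21200 to 49200 in EYFP NSCs, 23500 to 24200 in tdTomato NSCs and 22600 to 27600 in hippocampal NSCs, and 14300 to 20800 over the 9 astrocyte libraries. From NSC to astrocyte, 5 of the 10 fell and 3 rose on average. Asns fell by 1.75 (SE 0.15, adjusted p = 4.2e-09), Atf4 by 1.55 (SE 0.07, adjusted p = 3.3e-13) and Trib3 by 1.29 (SE 0.24, adjusted p = 8.1e-05), whereas Slc7a11, a cystine transporter, rose by 0.58 (SE 0.22, adjusted p = 0.018) and Atf5 by 0.53 (SE 0.11, adjusted p = 2.0e-04). By line Slc7a11 passed in the hippocampal line alone (1.75, adjusted p = 3.8e-04), Atf5 did not pass in the EYFP line (-0.03, adjusted p = 0.90), and Trib3 did not pass in the tdTomato line (-0.84, adjusted p = 0.078). The part of ATF4 in the mitochondrial enzymes was not tested.

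Several comparisons with EYFP NSCs rested on these libraries. Shmt2 was 0.56 lower in hippocampal than in EYFP NSCs (adjusted p = 0.026), Mthfd2 0.86 lower (adjusted p = 0.0044) and Aldh1l2 0.90 lower (adjusted p = 0.012), all with overlapping ranges. Without EYFP NSC replicate 2 the differences were -0.24 for Shmt2 (adjusted p = 0.10), -0.57 for Mthfd2 (adjusted p = 0.026) and -0.46 for Aldh1l2 (adjusted p = 0.045). The Aldh1l2 call was lost without hippocampal NSC replicate 1 (adjusted p = 0.0502), and that of Shmt2 without hippocampal NSC replicate 1 or 3 (adjusted p = 0.076 and 0.083). Without EYFP NSC replicate 2 the Shmt2 difference between EYFP and tdTomato NSCs was 0.17 (adjusted p = 0.24). In a fit of the compared libraries alone, the adjusted p-values of the 3 hippocampal differences were 0.15, 0.062 and 0.10. For Aldh1l2, the EYFP change from NSC to astrocyte was 0.34 without replicate 2 and -0.50 without replicate 3 (adjusted p = 0.018), so that its sign turned on 1 library.

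**Figure D5:**
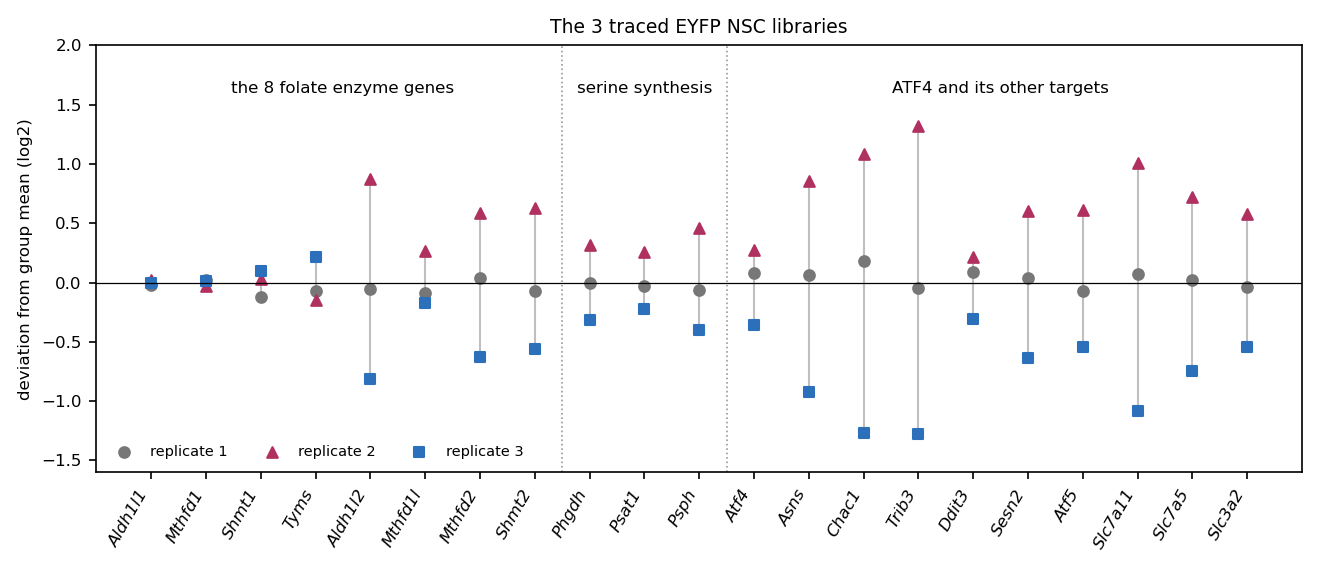
Normalised expression in the 3 traced EYFP NSC libraries for the 8 folate enzyme genes and for genes of the ATF4 and serine synthesis lists, drawn per gene as the difference from the group mean (log2). Aldh1l2, Mthfd2 and Shmt2 spread over 1.69, 1.22 and 1.20 with replicate 2 on top, while Aldh1l1 spreads over 0.04.

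Across the 18 libraries, the genes whose values followed Aldh1l1 most closely were not folate enzymes. Of the 5 highest Pearson correlations among 15449 other genes, 4 were those of Gm36448 (0.986), Gm3375 (0.984), Gm6483 (0.983) and Gm8615 (0.983). These are descriptions over points that share 3 lines and carry no p. All 4 are annotated pseudogenes, whose reads may come from similar genes. The 7 folate enzymes had correlations between -0.32 (Mthfd2, in place 12738) and -0.04 (Mthfd1, in place 8506).

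Genes beside Aldh1l1 on chromosome 6 had smaller differences between the lines. Within 100 kb on either side there were 13 genes, Aldh1l1 included. Slc41a3, a magnesium carrier gene that starts just beyond the end of Aldh1l1, lay 0.56 and 0.18 higher in hippocampal than in tdTomato and EYFP NSCs, and 0.58 and 0.43 higher in the astrocytes. Of these, 0.18 did not pass by limma (adjusted p = 0.10). Klf15 lay 0.34 higher and 0.22 lower in hippocampal NSCs, and 0.58 and 0.21 higher in the astrocytes, in the same order. Neither Klf15 difference against the EYFP line passed by limma (adjusted p = 0.076 and 0.053). Iqsec1 lay 0.36 higher and 0.35 lower in the NSCs, and 0.87 and 0.57 higher in the astrocytes. The long non-coding gene Gm44421 lay 0.80 and 0.08 higher in the NSCs, but 0.20 and 0.74 lower in the astrocytes. Of its differences only 0.80 and 0.74 passed by limma (adjusted p = 0.0013 and 0.0016). A long non-coding gene (Gm45901) and an antisense gene (Gm15756) overlap Aldh1l1 and shared 8.3% of the 75-base stretches of its transcripts with it, and both stood near the table's lowest value in every group. These neighbours were named after their values were seen.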

How the data were processed

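RNA was measured in 18 mouse libraries. Per the labels, these came from a stranded poly(A) kit with single-end reads of 76 bp. The authors aligned reads to GRCm38 and counted genes with RSEM 1.3.0 and STAR 2.5.2 after Trimmomatic 0.36, and normalised them with DESeq2 1.18.1 in R 3.4.3. The deposited file holds log2 values, 29.4% of them below 0, in the form of a regularised log. The transform is not named in the sources used here. The labels give a sequencing depth of at least 25000000 reads per sample, but the table holds no counts, so the depth of each library was not known and no counting interval was given.

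The deposited log2 values were tested with limma 3.58.1 in R 4.3.3, with a variance trend, in a model of the 6 groups over all 18 libraries. Genes with a value of at least 10 on the linear scale in at least 3 libraries were kept (15450), with Benjamini-Hochberg adjustment over all of them and a threshold of 0.05. The genes, lists and tests were chosen with earlier results of these data known, so no pattern is independent support. Genes were named by rule: the 8 enzymes, up to 3 genes per list with the largest average change and up to 2 called against their list, the 5 genes most correlated with Aldh1l1, and Gfap, Aqp4 and Nes. The results of 2 genes named by this rule are not reported here. Markers and neighbours beyond these were named after their values were seen. Coordinates are GENCODE M21 (GRCm38) and promoters RefSeq GRCm38.p6. Alternatives were other scalings, filters, pseudocounts, variance models, subsets and a replicate block.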

Additional observations from a re-analysis of the deposited data

Results flagged for a closer look

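Of the 7 tested enzymes, 4 had an NSC to astrocyte change that differed between lines by a test of the difference itself (limma, adjusted over 15450 genes), and values are the difference of the changes on the log2 scale. By comparison, 3 of 7 differed between the hippocampal and tdTomato lines (45.3% of all genes tested). Between the hippocampal and EYFP lines 3 of 7 differed (38%), and between the traced lines 0 of 7 (13.3%). For Aldh1l2 the hippocampal change was higher than the tdTomato change by 0.89 (SE 0.35, adjusted p = 0.049) and higher than the EYFP change by 1.25 (SE 0.35, adjusted p = 0.0099), or 0.81 without EYFP NSC replicate 2 (adjusted p = 0.0063). The difference against the tdTomato line did not pass in most fits that left out 1 library, with adjusted p up to 0.097. For Mthfd1 the difference of hippocampal minus EYFP change was -0.25 (SE 0.08, adjusted p = 0.018), which did not pass without hippocampal NSC replicate 1 (-0.21, adjusted p = 0.053). For Mthfd2 that of hippocampal minus tdTomato change was -0.83 (SE 0.29, adjusted p = 0.027). It did not pass without a filter on low values (adjusted p = 0.051), nor without tdTomato NSC replicate 2 or 3, tdTomato astrocyte replicate 2, hippocampal NSC replicate 2 or hippocampal astrocyte replicate 1 (-0.63 to -0.81, adjusted p = 0.051 to 0.084). For Shmt1 the difference was -0.43 against the tdTomato line (SE 0.08, adjusted p = 4.4e-04) and -0.57 against the EYFP line (SE 0.08, adjusted p = 3.7e-05).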

How the results depend on the processing

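Of 91 single results of the 7 tested enzymes 46 were called. Of these, 36 kept their direction and call in every alternative, 10 lost the call at least once and 0 reversed, and 20 results that were not called passed at least once. All 26 called changes from NSC to astrocyte were kept. The Aldh1l1 differences between the hippocampal and traced lines ran from 3.00 to 3.88, and its average change from 0.02 to 0.14. Counts of the 7 enzymes called differed more, and the causes were not tested. Hippocampal against tdTomato NSCs, 2 as reported, gave 1 after median centring and 1 without a filter. Hippocampal against EYFP NSCs, 3 as reported, gave 0 in a fit of only the libraries compared, where astrocytes of the traced lines, 1 as reported, also gave 0. Hippocampal against tdTomato astrocytes, 2 as reported, gave 4 after median centring, after quantile normalization, with only the libraries compared, and with both traced EYFP groups left out, an alternative chosen after seeing the data. The difference of the change between the hippocampal and tdTomato lines, 3 as reported, gave 1 without a filter, and that between the traced lines, 0 as reported, gave 1 after quantile normalization.

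Leaving out each library in turn gave 1 to 3 for hippocampal against tdTomato NSCs (1 without tdTomato NSC replicate 2 or 3 or hippocampal NSC replicate 2), 1 to 4 for hippocampal against EYFP NSCs (1 without hippocampal NSC replicate 1) and 2 to 5 for the traced NSCs (5 without EYFP NSC replicate 3). In astrocytes it gave 2 to 5 for hippocampal against tdTomato (4 and 5 without EYFP NSC replicates 2 and 3), 2 to 5 for hippocampal against EYFP (5 without EYFP NSC replicate 2) and 1 to 2 for the traced lines (2 without tdTomato astrocyte replicate 1). For the difference of the change it gave 1 to 4 for hippocampal against tdTomato (1 without tdTomato NSC replicate 2 or 3, tdTomato astrocyte replicate 2 or hippocampal astrocyte replicate 1), 2 to 5 for hippocampal against EYFP and 0 to 4 for the traced lines (5 and 4 without EYFP NSC replicate 3).

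By the criterion that every same-numbered pair correlates over 0.1, the replicate numbers were not taken to pair the libraries, and no source says which passage a number stands for. Deviations of same-numbered libraries correlated at 0.106 on average between lines of 1 fate (0.012 to 0.313 over 18 pairs) and at -0.024 between fates of 1 line (-0.077 to 0.034 over 9 pairs), although 17 of 18 libraries correlated best with their own number, a hint of pairing from the data. With the replicate number as a block, 6 of the 7 enzymes fell in each line and on average, and 2, 3 and 4 were called among NSCs, 3, 3 and 1 among astrocytes and 3, 4 and 0 for the difference of the change (hippocampal against tdTomato, hippocampal against EYFP, EYFP against tdTomato). The block brought 3 results past the threshold, Shmt2 in hippocampal against tdTomato astrocytes (adjusted p = 0.043), Mthfd2 in EYFP against tdTomato NSCs (0.029) and the difference of the Tyms change between the hippocampal and EYFP lines (0.0497), and took none away. Counts of the list genes were 25 lower and 11 higher, as in the fit without it. The table holds no counts per library, so no limit set by depth was computed.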
